A study of Mus musculus with 15 samples.

Results

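Integrins are receptors on the cell surface that are built from an alpha and a beta chain and that hold cells to the extracellular matrix. Laminins, trimers of an alpha, a beta and a gamma chain, and the network-forming type IV collagens are the main matrix proteins they bind in basement membranes, which in brain surround blood vessels and the pial surface. Neurons use some of the same receptors and ligands in axon growth and at synapses, whereas beta-2 integrins are leukocyte receptors that microglia carry. This family was followed in nuclei sorted from the mouse ventral tegmental area, the midbrain region that holds dopamine neurons of the reward pathway. Members were chosen by gene symbol, with no measured value in the rule, although the family was put forward with the counts of Itga7 between stages known. This gave 43 genes of the 35976 in the count table: 18 integrin alpha chains, 8 integrin beta chains, 11 laminin chains and 6 type IV collagen chains.

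All animals were male mice, 8 to 12 weeks old, heterozygous for DAT-Cre (B6.SJL-Slc6a3tm1.1(cre)Bkmm/J), in which the dopamine transporter locus drives Cre. Every mouse received AAV5-DIO-KASH-HA in the ventral tegmental area, so that cells with Cre carry an HA tag on the nuclear envelope, and 14 days were left for expression. Food-trained mice (FT) were taken after 7 days of lever pressing for food, and gave both HA-positive (dopaminergic, n = 4) and HA-negative (non-dopaminergic, n = 4) nuclei. Maintenance mice (MN, HA-positive nuclei only, n = 3) had then self-administered cocaine intravenously in daily 1-hour sessions, for 5 days at 0.3 mg/kg per infusion and 10 days at 1.0 mg/kg per infusion. Abstinence mice (CRV, labelled craving, HA-positive nuclei only, n = 4) had the same cocaine history followed by 21 days in the home cage without drug. Each library pooled tissue of 2 mice, so p-values measure the spread between such pools. The cocaine groups also differ from the food-trained group in catheter surgery and in time since the virus, and no group had saline in place of cocaine.

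Libraries held between 25813697 and 59046618 counts. The 13 dopamine neuron marker genes summed to 6068 to 12710 normalised read counts (CPM, a gene's counts relative to the scaled total of its library) in the 11 dopaminergic libraries and to 437 to 657 CPM in the non-dopaminergic ones. The non-dopaminergic libraries, labelled neurons, held 9727 to 23346 CPM of 13 oligodendrocyte genes, 2137 to 3959 CPM of 10 astrocyte genes and 2205 to 4840 CPM of 12 microglia genes, against at most 2888, 1172 and 1318 CPM in dopaminergic libraries. The 3 maintenance libraries favoured AT-rich transcripts: the slope of a gene's log2 level on its GC content lay between -0.0380 and -0.0230 per percentage point there and between -0.0164 and 0.0201 in the other 8 dopaminergic libraries. Non-dopaminergic replicate 2 had a slope of -0.0242, while the other 3 lay between 0.0213 and 0.0328.

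The summed level of the family lay between 586 and 795 CPM in the food-trained dopaminergic libraries and between 808 and 987 CPM in the non-dopaminergic ones, with no overlap. Its mean over the former was 698 ± 97.2 CPM (SD, n = 4) and over the latter 874 ± 77.9 CPM (n = 4), and it was 530 ± 51.9 CPM (n = 3) in maintenance and 625 ± 90.4 CPM (n = 4) in abstinence dopaminergic nuclei. By class, integrin alpha chains summed to 285 ± 75.2 CPM in food-trained dopaminergic and 318 ± 30.5 CPM in non-dopaminergic nuclei, and beta chains to 233 ± 23.3 and 277 ± 46.0 CPM. Laminins summed to 143 ± 28.1 and 185 ± 23.0 CPM, and type IV collagens to 37.1 ± 17.98 and 93.3 ± 30.9 CPM. In these bulk libraries fewer cells of a type and less RNA per cell cannot be told apart.

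Per kilobase of transcript, which allows genes to be compared, a few chains dominated the dopaminergic nuclei. In the food-trained group Itgb1, the beta chain shared by most laminin and collagen receptors, stood first at 46.5 ± 6.91 CPM per kb, followed by Itga3, an alpha chain of laminin receptors, at 32.9 ± 10.5 CPM per kb. Their spreads overlapped, and Lamb1 came next at 10.0 ± 2.44 CPM per kb, outside the spread of Itga3. Itga6, a laminin-binding alpha chain, at 6.09 ± 3.13 and Itgav, which binds fibronectin and vitronectin, at 5.37 ± 3.16 CPM per kb could not be separated from each other. In non-dopaminergic nuclei Itgb1 again led at 30.8 ± 7.63 CPM per kb. There it was followed by Itgb2, the leukocyte beta chain, at 15.5 ± 4.40 and Itga3 at 15.1 ± 5.23 CPM per kb, whose spreads overlapped.

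**Figure D1:**
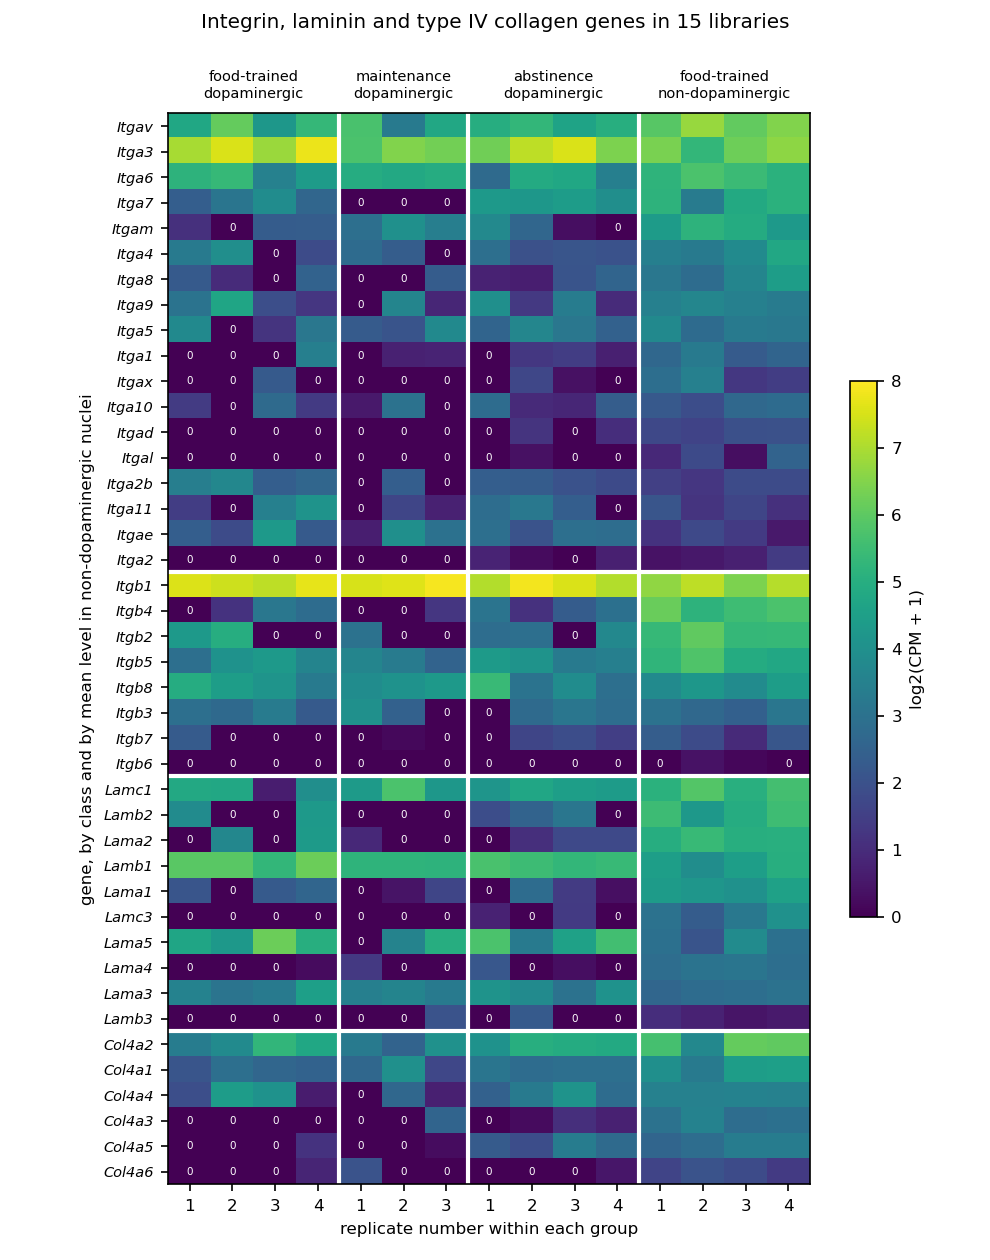
Level of 42 of the 43 genes as log2(CPM + 1) (colour) in each of the 15 libraries (columns, by group and replicate number), with genes in rows by class and by their mean in non-dopaminergic nuclei; a printed 0 marks 0 counts. Zeros are frequent in dopaminergic columns and nearly missing from the non-dopaminergic ones, and the Itga7 row is at 0 in the 3 maintenance libraries.

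Many members were on or off between pools of the same group. Between 22 and 39 of the 43 members had any count in a dopaminergic library, against 42 or 43 in each non-dopaminergic library, and 12 members were detected in all 11 dopaminergic libraries. Itgb2, for example, had 1061, 1053, 0 and 0 counts in the 4 food-trained dopaminergic libraries, and Lamb2, a laminin beta chain of vessel and synaptic basement membranes, had 773, 0, 0 and 861. Of the 32 members with 100 or more counts in at least 1 food-trained dopaminergic library, 14 (43.8%) had 0 in another library of that group, and 26.7% of all genes with such a peak did. The shares were 12 of 27 members (44.4%) against 17.6% of all genes in maintenance, 12 of 35 (34.3%) against 13.3% in abstinence, and 0 of 40 against 0.409% in non-dopaminergic nuclei. These shares were not matched on expression level.

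**Figure D2:**
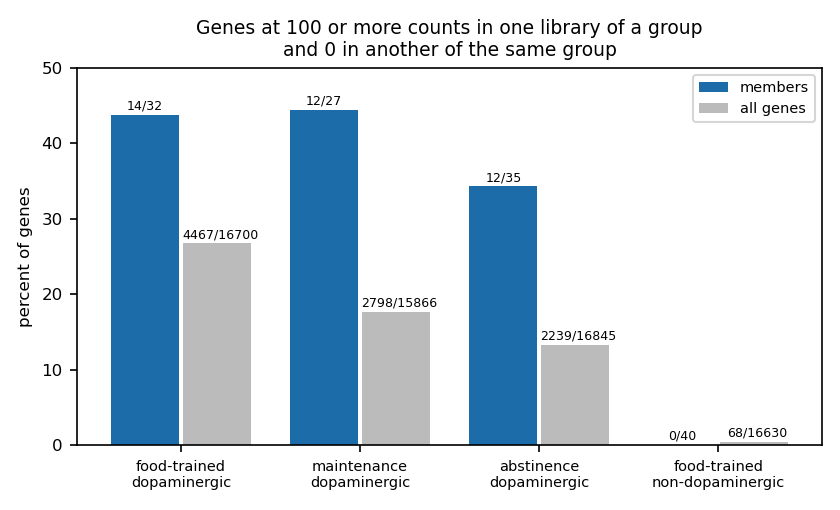
Percent of genes with 100 or more counts in 1 library of a group that had 0 counts in another library of the same group (vertical axis, bars from 0), for members and for all genes, with the counts above each bar. Members stand above all genes in the 3 dopaminergic groups, and 0 of 40 members show the pattern in non-dopaminergic nuclei.

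How the HA-positive and HA-negative nuclei of food-trained mice differ was asked first. Lamb1 and Lama5, a beta and an alpha laminin chain, were higher in dopaminergic nuclei. Among the lower members were Itgb5, the laminin chains Lama4, Lamb3 and Lamc3, the collagen chain Col4a3 and 3 alpha integrins (Itga2, Itgad and Itgal). With edgeR's quasi-likelihood test and an adjusted p under 0.05 over all genes, the calls came to 11 of 42 members tested (26.2%), while 12.8% of all genes tested passed. By direction 2 members were higher and 9 lower, against 3.63% and 9.17% of all genes. The median log2 difference, dopaminergic minus non-dopaminergic, was -1.52 over members and -0.21 over all genes, and the 4 libraries of one population did not overlap with those of the other for 26 members, 7 of them higher, where 25.9% of all genes did so (6.87% higher and 19.1% lower). Itgb6 was not tested, and 8 of the 9 lower members passed the low-count filter through non-dopaminergic libraries alone, so they could be called in one direction only. Without non-dopaminergic replicate 1 the count was 7, none of them higher, and among the 18 members with at least 10 counts in every library 8 passed, 5 higher and 3 lower, where 13.5% of all such genes passed (7.51% higher and 5.96% lower). DESeq2's test called 19 of 42 members, 6 higher and 13 lower, and 19.6% of all genes (7.61% higher and 12% lower). With the replicate number as a block 1 member passed, Lama5, and the labels do not say whether same-numbered libraries come from the same mice.

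**Figure D3:**
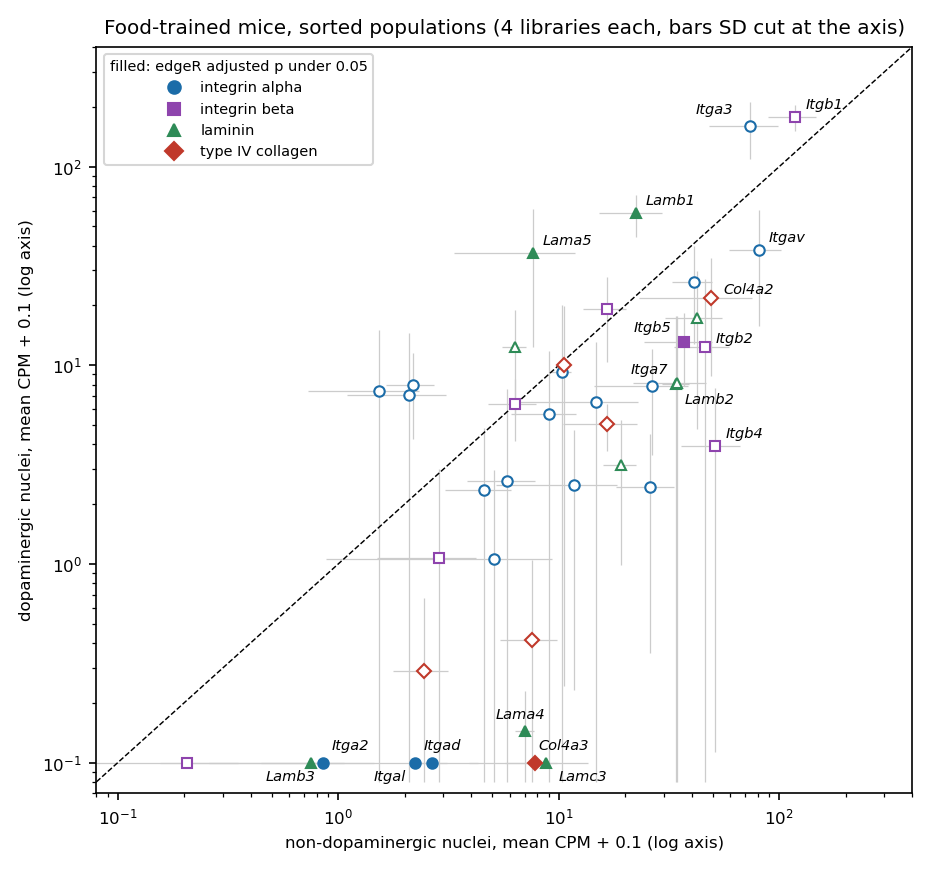
Mean CPM + 0.1 in dopaminergic (vertical) against non-dopaminergic nuclei (horizontal) of food-trained mice for 42 of the 43 genes, both on log axes, with bars of 1 SD over 4 libraries cut at the axis, symbols by class and filled symbols for members with an adjusted p under 0.05; the dashed line marks equal levels. Lamb1 and Lama5 lie above the line, Itgb5 below it, and the other 7 filled symbols lie at or near 0 in dopaminergic nuclei.

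Of 11 laminins tested 6 passed (54.5%, against 12.8% of all genes), with calls in both directions. Lamb1 had 60.6, 60.5, 38.7 and 72.6 CPM in the dopaminergic libraries and 21.4, 14.3, 21.6 and 31.5 CPM in the non-dopaminergic ones, so that every dopaminergic value was above every other. The means were 58.1 ± 14.1 and 22.2 ± 7.06 CPM, a log2 difference of 1.36 (SE 0.31, adjusted p = 0.0188). The call was lost without non-dopaminergic replicate 1 (adjusted p = 0.0558) or replicate 3 (adjusted p = 0.0507), with the difference still between 1.36 and 1.39 there. Lama5, the alpha chain of laminins found in most adult basement membranes, had 24.8, 18.3, 72.4 and 31.1 CPM against 6.66, 3.25, 13.4 and 6.73 CPM. The groups did not overlap, though dopaminergic replicate 3 was far above its group, and the log2 difference was 2.26 (SE 0.58, adjusted p = 0.0339). Without that library the difference was 1.72 (adjusted p = 0.0511), and the call was also lost without non-dopaminergic replicate 1, 2 or 4 (adjusted p = 0.0952, 0.0711 and 0.0960).

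The promoters of these laminin genes are shown because they are the members that were higher in dopaminergic nuclei, with that of Itgb5, the one lower member with counts in every dopaminergic library, for comparison. Each is the 300 bases from 250 before to 50 after the RefSeq start on GRCm38.p6, written 5′ to 3′ on the gene's strand, with the letters GGGCGG or their complement CCGCCC, the core of the GC box bound by Sp factors, in capitals. Lama5 (chr2:180225810-180226109, minus strand) holds 4 matches, Lamb1 (chr12:31265043-31265342, plus strand) 2 and Itgb5 (chr16:33829415-33829714, plus strand) 3.
Lama5: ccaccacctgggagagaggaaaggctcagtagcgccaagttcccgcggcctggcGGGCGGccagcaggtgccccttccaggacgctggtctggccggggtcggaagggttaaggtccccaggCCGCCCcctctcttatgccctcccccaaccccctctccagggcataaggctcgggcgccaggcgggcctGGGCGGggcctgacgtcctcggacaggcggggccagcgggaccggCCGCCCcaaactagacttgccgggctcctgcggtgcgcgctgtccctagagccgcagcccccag
Lamb1: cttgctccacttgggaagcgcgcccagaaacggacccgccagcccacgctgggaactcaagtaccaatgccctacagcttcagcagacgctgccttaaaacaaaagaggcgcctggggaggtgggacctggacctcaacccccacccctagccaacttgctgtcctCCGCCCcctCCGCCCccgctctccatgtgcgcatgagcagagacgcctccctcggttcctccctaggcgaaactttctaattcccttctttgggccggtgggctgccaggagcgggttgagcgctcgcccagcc
Itgb5: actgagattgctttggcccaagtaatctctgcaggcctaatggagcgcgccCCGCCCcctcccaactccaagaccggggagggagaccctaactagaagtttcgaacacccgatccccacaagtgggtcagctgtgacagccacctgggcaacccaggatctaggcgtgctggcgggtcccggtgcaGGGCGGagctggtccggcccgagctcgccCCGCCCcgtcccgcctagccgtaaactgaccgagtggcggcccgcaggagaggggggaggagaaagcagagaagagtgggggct
At least 1 match was present in 35.7% of all 32851 promoters of that length and in 16 of 31 promoters of the 28 members with an entry. The letters therefore occurred in the promoters of members called in either direction, and a match is a description of the sequence only.

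Laminin chains that were lower had little or no signal in food-trained dopaminergic nuclei. Lamc3, a gamma chain of retinal and cortical basement membranes, had 0 counts in all 4 food-trained dopaminergic libraries and 7.07, 3.996, 8.13 and 15.5 CPM in non-dopaminergic ones. With 0 read as a floor of 3 counts per library it was at least 110-fold higher in the latter. Lamb3, a chain of epithelial laminin, was also at 0, but at only 1.07, 0.683, 0.363 and 0.495 CPM in the other population, at least 8.31-fold higher. Lamb3 was not at 0 in every dopaminergic library of the other stages: maintenance replicate 3 had 3.14 CPM, from 129 counts, and abstinence replicate 2 had 3.76 CPM, both above all non-dopaminergic libraries. Lama4, the alpha chain of endothelial basement membrane, had 0, 0, 0 and 0.174 CPM, the last from 8 counts, against 6.22, 7.33, 7.64 and 6.47 CPM. Its log2 difference was -7.19 (SE 1.69, adjusted p = 0.0222), a call that could go in one direction only and that was lost on leaving out any single non-dopaminergic library (adjusted p from 0.0547 to 0.0634).

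The other abundant laminins of non-dopaminergic nuclei did not pass the test. Lama2, an alpha chain of muscle, vessel and glial basement membranes, had 0, 12.0, 0 and 19.7 CPM in dopaminergic nuclei and 31.0, 41.2, 31.7 and 32.4 CPM in non-dopaminergic nuclei, and Lamb2 averaged 8.05 ± 9.53 against 34.1 ± 12.5 CPM. The Lama2 groups did not overlap, and the adjusted p was 0.504 for Lama2 and 0.5 for Lamb2. Lamc1, the gamma chain common to most laminins, had 27.3, 26.6, 0.551 and 14.5 CPM against 33.2, 57.4, 31.8 and 47.4 CPM (adjusted p = 0.397).

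Type IV collagens all had negative log2 differences, with a median of -2.68 over the 6 chains, and 1 of 6 was lower by edgeR's main fit (16.7%, against 9.17% of all genes). Col4a3, a chain of the specialised collagen network of kidney and inner ear, had 0 counts in every food-trained dopaminergic library and 7.09, 10.7, 6.21 and 6.67 CPM in non-dopaminergic nuclei, at least 97.5-fold higher there. In maintenance it had 0, 0 and 4.96 CPM, the last from 204 counts and the highest of any dopaminergic library. Its network partner Col4a4 showed no such gap. It had 2.79, 20.6, 16.0 and 0.522 CPM in dopaminergic nuclei and 10.4 ± 0.128 CPM in non-dopaminergic nuclei (log2 difference -0.09, SE 0.93, adjusted p = 0.971). Col4a3 and Col4a4 start 72 bases apart on opposite strands of chromosome 1.

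Col4a1 and Col4a2, the chains of the common vascular type IV collagen, were the most abundant type IV collagens per kilobase in non-dopaminergic nuclei, and neither passed in edgeR's main fit. Col4a1 had 3.33, 6.63, 5.18 and 4.67 CPM in dopaminergic and 14.8, 8.57, 20.7 and 21.7 CPM in non-dopaminergic nuclei, with no overlap and a log2 difference of -1.76 (SE 0.51, adjusted p = 0.0558). It passed in the fits without dopaminergic replicate 2 or 3 or without non-dopaminergic replicate 2 (adjusted p = 0.0365, 0.0483 and 0.0437). With all libraries it passed by DESeq2's test (adjusted p = 0.00188) and by edgeR with at least 10 counts in every library (adjusted p = 0.0257). In the other 10 alternatives it did not pass. Col4a2 had 9.36, 13.2, 37.8 and 26.2 CPM against 49.4, 12.3, 68.5 and 65.6 CPM (adjusted p = 0.264), and the groups overlapped through non-dopaminergic replicate 2. Per kilobase Col4a2 stood above Col4a1 in both populations, at 3.36 ± 2.01 against 0.748 ± 0.206 CPM per kb in dopaminergic and 7.59 ± 4.01 against 2.49 ± 0.917 CPM per kb in non-dopaminergic nuclei. The starts of this pair lie 21 bases apart on opposite strands of chromosome 8, so the promoter window of Col4a1 (chr8:11312777-11313076, minus strand, 1 match) shares 78 bases with that of Col4a2, and it is shown as the stretch from which both are read.
Col4a1: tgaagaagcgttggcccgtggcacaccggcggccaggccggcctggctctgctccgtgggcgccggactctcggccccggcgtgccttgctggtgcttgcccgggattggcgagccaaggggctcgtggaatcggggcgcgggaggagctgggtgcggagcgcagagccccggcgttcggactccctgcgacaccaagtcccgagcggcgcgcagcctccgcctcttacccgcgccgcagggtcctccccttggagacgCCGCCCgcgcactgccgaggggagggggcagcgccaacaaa
The window holds 37 CG pairs, where the median over all promoters was 7 and the 90th percentile 31. The pair shares 22 exonic bases, 0.3% of either gene, and whether counting used strand is not given in the sources used here.

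Among integrin alpha chains 3 of 18 were lower (16.7%, against 9.17% of all genes) and none was higher by edgeR's main fit. These 3 passed the low-count filter through non-dopaminergic libraries alone, so they could be called lower only. With at least 10 counts in every library, Itga2b, Itga3 and Itgae were higher and Itga7 lower (7.51% and 5.96% of all such genes). DESeq2's test called the same 3 higher, and Itgad, Itgal, Itgam, Itga2 and Itga7 lower (7.61% and 12% of all genes). Itgad and Itgal, leukocyte chains that pair with Itgb2, and Itga2, a collagen receptor chain of platelets and epithelia, had 0 counts in all food-trained dopaminergic libraries. Itgad had 2.35, 2.07, 2.90 and 2.97 CPM in non-dopaminergic nuclei, at least 32.7-fold higher. Itgal had 0.912, 2.48, 0.227 and 4.90 CPM, at least 27.1-fold higher, and Itga2 had 0.324, 0.435, 0.634 and 1.63 CPM, at least 9.63-fold higher. Both limits rest in part on non-dopaminergic replicate 4, without which they were at least 15.4-fold for Itgal and at least 5.91-fold for Itga2. Itgad, Itgal and Itga2 were thus low in the non-dopaminergic population too. Of the marker genes listed above, 8 of 12 for microglia, 6 of 10 for astrocytes and 8 of 13 for oligodendrocytes were also lower in dopaminergic nuclei, against 9.17% of all genes. Their part in the integrin result was not tested.

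The abundant alpha chains went in different directions, none past the threshold in edgeR's main fit. Itga3 had 124, 186, 111 and 218 CPM in dopaminergic and 82.2, 38.1, 74.9 and 98.2 CPM in non-dopaminergic nuclei. The groups did not overlap, and the log2 difference was 1.10 (SE 0.33, adjusted p = 0.0652), which passed without dopaminergic replicate 3 (adjusted p = 0.0343). With all 8 libraries Itga3 passed by DESeq2's test (adjusted p = 0.0128). By edgeR it passed with upper quartile scaling (adjusted p = 0.0469) and with at least 10 counts in every library (adjusted p = 0.0379). It did not pass in the other 11 alternatives. Itgav had 26.05, 68.5, 17.7 and 39.4 CPM against 59.3, 107, 66.6 and 89.4 CPM (log2 difference -1.11, SE 0.41, adjusted p = 0.128), and it passed without dopaminergic replicate 2 (-1.56, adjusted p = 0.0194). Itga6 had 34.7, 39.8, 10.3 and 20.1 CPM against 36.1, 52.0, 42.5 and 33.3 CPM (log2 difference -0.67, SE 0.41, adjusted p = 0.381). Itgav and Itga6 overlapped between populations.

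Of the beta chains, Itgb5, which pairs with Itgav, was the one called by edgeR of 7 tested (14.3%, against 12.8% of all genes). DESeq2's test also called Itgb4 and Itgb1. It had 6.53, 15.7, 18.5 and 11.2 CPM in dopaminergic and 36.7, 54.9, 29.4 and 26.6 CPM in non-dopaminergic nuclei, with no overlap. The log2 difference was -1.53 (SE 0.41, adjusted p = 0.0378), and the adjusted p was between 0.0535 and 0.109 on leaving out dopaminergic replicate 4 or any single non-dopaminergic library. Itgb1 had 189, 166, 147 and 207 CPM against 102, 146, 84.6 and 137 CPM. These groups stood apart by a small margin, with a log2 difference of 0.57 (SE 0.22, adjusted p = 0.14 by edgeR and 0.0440 by DESeq2).

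Itgb4 and Itgb2 were detected in all non-dopaminergic libraries and were on in some dopaminergic ones and off in others. Itgb4, partner of Itga6 in hemidesmosomes and in vessels, had 0, 1.24, 7.97 and 6.06 CPM against 71.6, 35.2, 45.2 and 52.1 CPM (log2 difference -3.77, SE 1.25, adjusted p = 0.091), and it passed without dopaminergic replicate 1 (-3.35, adjusted p = 0.0131). Itgb2 had 18.5, 30.5, 0 and 0 CPM against 39.7, 65.7, 38.9 and 40.4 CPM (adjusted p = 0.544). Neither pair of groups overlapped, and neither gene passed by edgeR with all 8 libraries. DESeq2's test on these libraries called Itgb4 (log2 difference -3.73, adjusted p = 0.00676) and not Itgb2 (adjusted p = 0.616). Itgb8, a beta chain that pairs with Itgav and activates latent TGF-beta, had 29.9, 20.7, 16.7 and 8.78 CPM against 13.3, 17.8, 13.6 and 21.0 CPM (log2 difference 0.19, SE 0.43, adjusted p = 0.855).

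Of the markers of vessel cells and fibroblasts few passed the test, all of them lower in dopaminergic nuclei, where 9.17% of all genes were lower. The 15 endothelial genes summed to 38.1 to 172 CPM in food-trained dopaminergic and 165 to 233 CPM in non-dopaminergic libraries, with Emcn and Erg at 0 in the former and 1 of 14 tested genes lower (7.14%). The 11 mural genes summed to 12.9 to 157 CPM against 130 to 175 CPM, with Ndufa4l2 at 0 in the former and 2 of 10 lower (20%). The endothelial and mural sums overlapped between populations. The 8 fibroblast genes summed to 4.46 to 77.9 CPM against 141 to 233 CPM, with no gene at 0 in every library and 1 of 8 lower (12.5%), and these sums did not overlap. The median log2 difference was -2.10 over the endothelial, -3.30 over the mural and -2.62 over the fibroblast genes, each below the -1.52 of the members. The populations did not overlap for 7 of 14, 8 of 10 and 6 of 8 of these genes, all lower in dopaminergic nuclei, against 19.1% of all genes. These cell types make laminin and type IV collagen in brain, and their part in the laminin and collagen values was not tested.

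Genes that work with the family were taken as 4 lists. Of 16 basement membrane and other integrin ligands 5 passed (31.2%, against 12.8% of all genes), 1 higher and 4 lower (3.63% and 9.17% of all genes), with Thbs1, a secreted adhesion protein, higher in dopaminergic nuclei at 29.1 ± 13.8 against 8.47 ± 2.79 CPM (log2 difference 1.76, SE 0.45, adjusted p = 0.0309). Lower in the same list were Nid2, which links laminin to type IV collagen, at 0 counts in every dopaminergic library against 4.80 ± 1.70 CPM, Tnc at 0.0380 ± 0.0761 against 8.97 ± 2.18 CPM, Agrn at 62.1 ± 12.3 against 138 ± 49.1 CPM and Tnr at 38.1 ± 16.6 against 85.4 ± 10.97 CPM. The list's median log2 difference was -2.63. Of 6 non-integrin receptors 1 passed (16.7%): Utrn, which ties dystroglycan to actin, had 31.3 ± 12.2 against 113 ± 8.74 CPM (log2 difference -1.88, SE 0.31, adjusted p = 0.0067).

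Of 29 genes of integrin activation and the adhesion complex 3 passed, all lower: Ptk2, the focal adhesion kinase, at 40.8 ± 19.0 against 95.7 ± 9.87 CPM, Tns1, which couples integrins to actin, at 14.0 ± 5.28 against 34.8 ± 8.88 CPM, and Fermt1 at 0 against 0.543 ± 0.313 CPM. That is 10.3% of the list, against 12.8% of all genes (9.17% lower), and 27 of its 29 log2 differences were negative, with a median of -0.89 against -0.21 over all genes. Of 11 tested genes of collagen synthesis and crosslinking 3 passed (27.3%): Colgalt2, a collagen galactosyltransferase, was higher at 72.8 ± 41.4 against 15.8 ± 4.48 CPM, and Plod1, a lysyl hydroxylase, and Loxl2, a crosslinking oxidase, were lower at 54.0 ± 18.05 against 112 ± 11.7 and 0.0109 ± 0.0217 against 1.52 ± 0.658 CPM. None of the genes in the 4 lists passed in any comparison between stages.

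The remaining comparisons followed dopaminergic nuclei from food training through cocaine maintenance to abstinence. They share libraries with each other, so their values are given side by side. Itga7, the alpha chain of the laminin receptor of muscle that neurons also use in axon regrowth, had 243, 262, 377 and 242 counts in the food-trained dopaminergic libraries, 0 in each of the 3 maintenance libraries, 845, 972, 1134 and 593 in abstinence and 1732, 433, 1238 and 1550 in non-dopaminergic nuclei. As CPM this was 7.73 ± 4.31 in food-trained, 17.95 ± 2.59 in abstinence and 26.4 ± 12.0 in non-dopaminergic nuclei. The abstinence libraries, at 14.4 to 20.6 CPM, lay above all food-trained ones, at 4.23 to 13.8 CPM, and overlapped with the non-dopaminergic range of 8.97 to 35.1 CPM. With the zeros at the floor of 3 counts per library, Itga7 was at least 103-fold lower in maintenance than after food training and at least 239-fold lower than in abstinence. These stage values were known when the family was chosen, so they stand as a description with no p.

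Itga7 (chr10:128933818-128958282 on GRCm38, plus strand) had 0 counts in the 3 maintenance libraries and 200 or more in each of the other 12, and no other gene did. That limit lies just under its lowest count in those libraries, 242, and its counts were known beforehand. This and the next counts of genes therefore describe Itga7 and lend it no support. With at least 50 counts asked of the other 8 dopaminergic libraries, 4 genes qualified: Itga7, Epha8, Mapkapk2 and Gm34402. At over 10 counts, Itga7 was 1 of 26 genes (0.0723% of all) at 0 in maintenance and present in every food-trained dopaminergic library, and 1 of 130 (0.361%) against abstinence, and no other member met either rule. Its longest transcript has a GC content of 57.8%, against a median of 52.7% over members and 48.8% over the 8342 genes that gave the slopes above. Itga3, at 57.9% GC, had 52.2, 87.9 and 78.1 CPM in the same maintenance libraries. Stage and the GC slope of these libraries cannot be told apart, and the part of the slope in the Itga7 zeros was not tested. Between populations of food-trained mice Itga7 had a log2 difference of -1.80 (SE 0.57, adjusted p = 0.075), which passed without dopaminergic replicate 3 (-2.21, adjusted p = 0.0246) or non-dopaminergic replicate 2 (-2.09, adjusted p = 0.0296). With all libraries Itga7 passed by DESeq2's test (adjusted p = 0.0156) and by edgeR with at least 10 counts in every library (adjusted p = 0.0435). It did not pass in the other 11 alternatives.

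**Figure D4:**
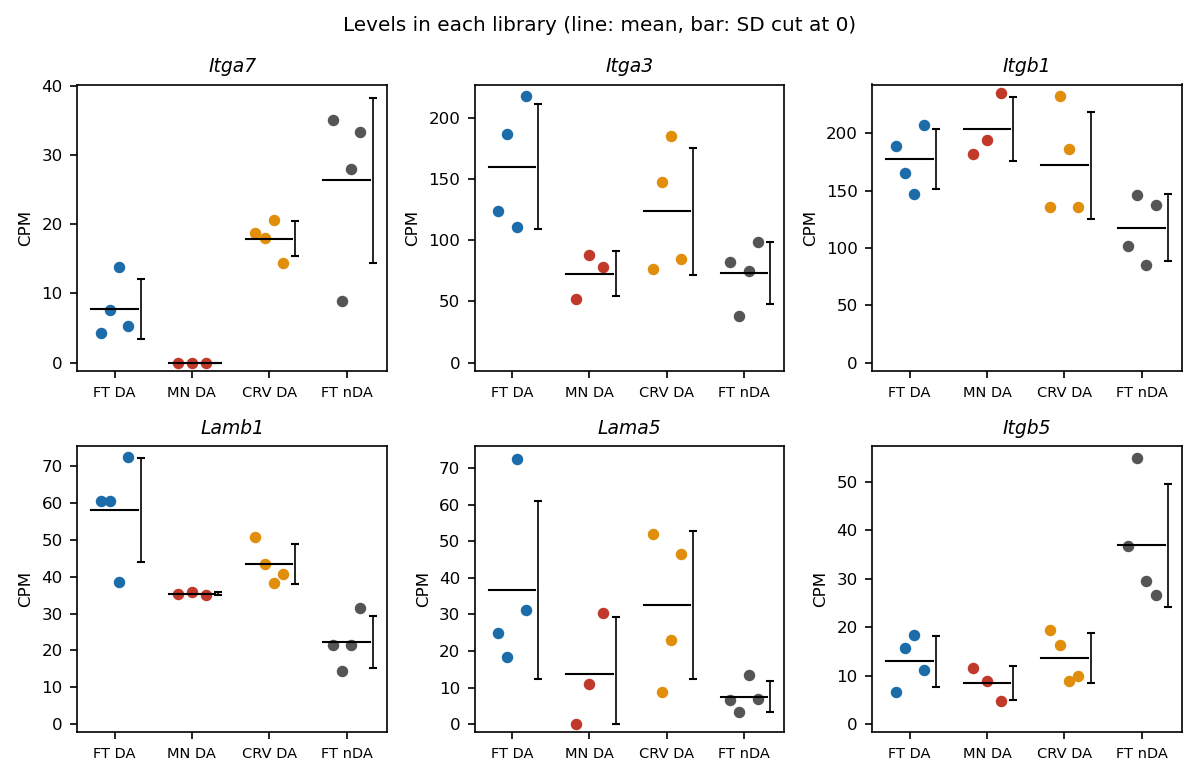
CPM of 6 members in each library (points) of food-trained (FT DA), maintenance (MN DA) and abstinence (CRV DA) dopaminergic nuclei and food-trained non-dopaminergic nuclei (FT nDA), with the group mean (line) and 1 SD (bar, cut at 0). Itga7 is at 0 in all maintenance libraries, Lamb1 is lowest and Itgb5 highest in non-dopaminergic nuclei.

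Between maintenance and food training, the other laminins and integrins did not pass edgeR's test. Itga7 aside, 0 of 35 members passed by edgeR, and over all genes it called 25 of 19060 (0.131%, with 0.00525% higher and 0.126% lower). An unadjusted p under 0.05 was found for 5 of the 35 members and 11.6% of all genes, and DESeq2 called 4 members and 5.13% of all genes. For 5 of the 35 the groups did not overlap, against 8.49% of all genes (4.28% higher and 4.21% lower): Itga2b, Itga3 and Lamb1 were among the lower and Itgam among the higher in maintenance. The median log2 difference, maintenance minus food-trained, was -0.82 over the 35 members and -0.01 over all genes, with 23 of 35 negative.

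Itga3 had 124, 186, 111 and 218 CPM after food training and 52.2, 87.9 and 78.1 CPM in maintenance (log2 difference -1.14, SE 0.37, adjusted p = 0.305). With all 15 libraries and a term shared by the maintenance libraries and non-dopaminergic replicate 2, the difference of Itga3 was 0.02. That term is set only by replicate 2 against the rest of the non-dopaminergic group, 38.1 against 74.9 to 98.2 CPM for Itga3. The value thus rests on that library and cannot decide whether stage or library preparation lies behind the difference. Lamb1 had 35.4, 35.8 and 35.0 CPM in maintenance, all below the lowest food-trained value of 38.7 CPM (log2 difference -0.71, SE 0.29, adjusted p = 0.396). Neither gene's groups overlapped, and neither passed by edgeR. DESeq2's test called Itga3 (log2 difference -1.15, adjusted p = 0.0407) and not Lamb1. Lamb2 was at 0 in all 3 maintenance libraries, beside 13.5, 0, 0 and 18.7 CPM after food training (adjusted p = 0.349).

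Several members present in every non-dopaminergic library had no count in a whole dopaminergic group. Itga7 aside, Itga2, Itgad, Itgax, Lamb2 and Lamc3 had 0 counts in every maintenance library and over 10 in every non-dopaminergic one, as did 4.16% of all genes. Shares by this rule are over all 35976 genes, of which 22733 to 23886 had a count in a non-dopaminergic library, against 42 or 43 of the 43 members. They are therefore low beside a share of detected genes. The same rule on food-trained dopaminergic nuclei gave 6 members, among them Col4a3, Itga2, Itgad, Lamb3 and Lamc3, with 2.9% of all genes, and on abstinence nuclei it gave no member and 1.3% of all genes. Itgax, a leukocyte alpha chain, had 6.48, 10.3, 1.45 and 1.76 CPM in non-dopaminergic nuclei. Among dopaminergic libraries it appeared in food-trained replicate 3 at 3.82 CPM and in abstinence replicates 2 and 3 at 2.23 and 0.290 CPM. In all 3 maintenance libraries Cdh5, Vwf and Erg of the endothelial list, 5 of 11 mural genes and 3 of 8 fibroblast genes were also at 0. A zero in every library is easier to reach with 3 libraries than with 4, and the share over all genes was not counted. Summed levels in maintenance were 94.4 ± 22.2 (endothelial), 48.0 ± 6.25 (mural) and 20.0 ± 7.70 CPM (fibroblast). In food-trained dopaminergic nuclei they were 94.9 ± 56.6, 60.6 ± 65.4 and 39.8 ± 32.2 CPM. The part of these cells in the members' zeros was not tested.

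Between abstinence and food training, Itga7 aside, no member of 35 and none of 19060 genes passed (0%) by edgeR, with 2 members and 819 genes (4.3%) at an unadjusted p under 0.05. DESeq2 called 2 members, Col4a3 among them, and 140 genes (0.735%). For Col4a3 its log2 difference was 21.6, against 7.43 by edgeR. Col4a3 was at 0 in all 4 food-trained dopaminergic libraries. It had 0, 0 and 4.96 CPM in maintenance and 0, 0.167, 1.11 and 0.680 CPM in abstinence. Groups did not overlap for 2 of the 35, Itga2b and Col4a5, against 3.32% of all genes (2.37% higher and 0.955% lower), with Col4a5 higher and Itga2b lower in abstinence. Col4a5, a chain on the X chromosome, had 0, 0, 0 and 1.26 CPM after food training, 0, 0 and 0.195 CPM in maintenance, and 3.89, 2.67, 9.33 and 5.76 CPM in abstinence. The abstinence range lay above all other dopaminergic libraries and reached into the non-dopaminergic range of 5.04 to 9.37 CPM, yet the log2 difference from food training was 4.08 with an SE of 2.33.

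Between abstinence and maintenance, Itga7 aside, 0 of 35 members passed by edgeR, and over all genes it called 34 of 19060 (0.178%, with 0.168% higher and 0.0105% lower). An unadjusted p under 0.05 was found for 2 of the 35 members and 9.92% of all genes, and DESeq2 called 1 member and 4.16% of all genes. Most members had higher fitted levels in abstinence, 25 of 35, with a median log2 difference of 0.69 against 0.05 over all genes. The median was 0.75 over the tested endothelial, 1.72 over the mural and 1.12 over the fibroblast markers, and their part was not tested. The groups did not overlap for Col4a2, Col4a5 and Lamb1, all higher in abstinence, against 12.1% of all genes (7.56% higher and 4.58% lower). Col4a2 had 8.71, 4.80 and 15.4 CPM in maintenance and 15.7, 31.6, 29.6 and 28.3 CPM in abstinence (log2 difference 1.44, SE 0.60, adjusted p = 0.483). The lowest p among the 35 members was that of Lamb2, which had 0 in maintenance and 2.73, 4.88, 7.81 and 0 CPM in abstinence (adjusted p = 0.432). Lamb1 had 50.8, 43.4, 38.3 and 40.9 CPM in abstinence (log2 difference 0.29, SE 0.28, adjusted p = 0.938).

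The other abundant chains of dopaminergic nuclei overlapped between the 3 stages. Itgb1 had 182, 194 and 235 CPM in maintenance and 135, 232, 186 and 135 CPM in abstinence, overlapping with food training. Its log2 difference from food training was 0.20 (SE 0.25) in maintenance and -0.04 (SE 0.23) in abstinence. Itga6 had 30.1, 27.7 and 30.3 CPM in maintenance and 5.87, 28.5, 26.1 and 9.84 CPM in abstinence. Lama5 ranged from 0 to 30.4 CPM in maintenance and from 8.90 to 52.0 CPM in abstinence, with low and high libraries in each stage. Itgb5 averaged 8.47 ± 3.42 CPM in maintenance and 13.7 ± 5.10 CPM in abstinence, against 12.97 ± 5.24 CPM after food training.

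Overlapping annotation touched a few members. Itgam shares 68.7% of its exonic bases with Gm49368 and Itga10 33.5% with Gm42957, both on the same strand, and other overlaps were at most 8.6% of a member. Itgam had 1.17, 0, 4.04 and 4.11 CPM in food-trained dopaminergic nuclei, 6.50, 15.2 and 9.78 CPM in maintenance, 12.7, 5.27, 0.218 and 0 CPM in abstinence and 19.9, 34.7, 29.5 and 19.0 CPM in non-dopaminergic nuclei. Its values, like those of Itga10, are uncertain where reads could go to either gene.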

How the data were processed

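RNA was measured in 15 libraries of sorted nuclei. The deposited table holds whole-number counts per gene, made by the authors and not normalized, for 35976 genes in 15 columns. A second deposited table holds the same counts for 10 of the libraries (0 cells differ) and was not used. Per the submitters' processing notes, Trim Galore 0.6.7, cutadapt 1.18, STAR 2.7.10a, StringTie 2.1.5, DESeq2 1.38.3 and the builds mm10 and GRCm38 were involved; their roles, the annotation and the strand setting are not given in the sources used here.

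The members and gene lists were chosen with earlier results of these data known. Genes were tested with edgeR 4.0.16 in R 4.3.3 (quasi-likelihood F-test, TMM scaling, filterByExpr, two-sided, Benjamini-Hochberg over all genes tested, threshold 0.05). Populations were compared in 8 libraries and stages in the 11 dopaminergic libraries, where 36 of the 43 members passed the filter (not Itga2, Itgad, Itgal, Itgb6, Lama4, Lamb3 or Lamc3). The log2 differences are from edgeR, and SE is the absolute log2 difference over the square root of F. CPM are counts scaled by TMM over 15 libraries, and CPM per kb uses the longest GENCODE transcript on GRCm38. Folds against a group at 0 use 3 counts per library and cover counting error only. Replicates of a group correlated at r between 0.782 and 0.958 on log2 CPM across genes, and no 2 columns were identical. Alternatives used DESeq2 1.42.0, other scalings and filters, and fits without each library. Named with values are members past the threshold, Itga7, the 3 highest by CPM in each class and population, the 2 with the lowest p between stages and those at 0 in a whole group. Col4a5, Itga2b, Itgae, Itgam and Itga10 were named after their values were seen. One member enters the counts and sums but is otherwise not reported here.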

Additional observations from a re-analysis of the deposited data

Results flagged for a closer look

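Of 69 combinations of gene and group with 4 libraries, 8 held a library far from the other 3, by a gap to the nearest above 0.829 of the group's range; chance gives about 1 in 20 for continuous values. That rate does not apply to 4 of the 8, where the other 3 libraries were at 0 and the gap fills the range by construction. In abstinence replicate 2, Itgal was at 0.297 CPM and Lamb3 at 3.76 CPM, with 0 in the other 3 libraries, and Itgax was at 2.23 CPM against 0 to 0.290 CPM. That library is also the deepest, with 59046618 counts. Lama4 was at 3.51 CPM in abstinence replicate 1, against 0 to 0.236 CPM. In food-trained dopaminergic nuclei Itgax was at 3.82 CPM in replicate 3 and Lama4 at 0.174 CPM in replicate 4, with 0 in the others. In non-dopaminergic replicate 2, Itgb2 was at 65.7 CPM against 38.9 to 40.4 CPM and Lama2 at 41.2 CPM against 31.0 to 32.4 CPM.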

How the results depend on the processing

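Between populations, 11 members passed. The count was 19 with DESeq2's test (6 higher and 13 lower, where it called 19.6% of all genes), 6 with all 15 libraries in 1 fit, 7 without non-dopaminergic replicate 1 and 7 to 15 over all fits that leave out 1 library; the other scalings and filters gave 8 to 12. The counts between stages include Itga7, whose stage values were known when the family was chosen. Its calls, and their persistence or loss in other fits, are a description and lend neither Itga7 nor the family support. Between maintenance and food training the count was 1 (Itga7), also without each library in turn. It was 0 with at least 10 counts in every library (Itga7 is then not tested), in a fit of the 2 groups only and in 15 libraries with a term shared by the maintenance libraries and non-dopaminergic replicate 2. The size of that term is set by non-dopaminergic replicate 2 alone. DESeq2's test gave 5, 2 higher and 3 lower, among them Itga3, Itga7, Lamb2 and Col4a3. Lamb2 was at 0 in every maintenance library and in food-trained replicates 2 and 3. Col4a3 was at 0 in every food-trained library and above 0 only in maintenance replicate 3, at 204 counts. Between abstinence and food training 0 passed without any single library and 2 by DESeq2's test. Between abstinence and maintenance the count was 1 (Itga7), also without each library in turn and with the shared term, 2 by DESeq2's test (Lamb2 and Itga7) and 0 with at least 10 counts in every library. For Lamb2, at 0 in every maintenance library, DESeq2's log2 difference was 24.1, against 10.4 by edgeR (adjusted p = 0.432). Among members named by the rule, 3 values short of the threshold changed sign: between populations Col4a4 (-0.09) was 0.21 and 0.30 without dopaminergic replicates 1 and 4 and Itgb8 (0.19) was -0.12 without dopaminergic replicate 1, and Itga3 between maintenance and food training (-1.14) was 0.02 with the shared term. With the replicate number as a block, 1 member (Lama5) passed between populations (adjusted p = 0.0666 for Lamb1, 0.113 for Itgb5 and 0.0973 for Col4a3), 0 between maintenance and food training, 0 between abstinence and food training and 0 between abstinence and maintenance; over all genes the block gave 775, 0, 0 and 2 calls. Same-numbered libraries of the sorted populations correlated at 0.0349 to 0.0876 in their deviations from the group means, all positive and under 0.1, and 3 of 4 correlated best with their own number. The labels do not say whether they come from the same mice, so the block is given as an alternative. Members at 0 in a group are known only to a floor of 3 counts per library, and the many zeros within dopaminergic groups widen the errors of low members.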
